A study of Mus musculus with 32 samples.

Results

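The proteasome genes described here are those whose symbol begins with Psma, Psmb, Psmc, Psmd or Psme followed by a digit, without pseudogenes. Transcript rows of each gene identifier were summed. The rule found 44 genes in the female table of 13377 genes and the same 44 in the male table of 11999 genes, and it used no measured value. Of these, 5 are the inducible genes Psmb8, Psmb9, Psmb10, Psme1 and Psme2, and 39 are the other members. Not all of them encode proteasome subunits. Psmc3ip matches the name pattern but encodes a partner of recombination enzymes, and Psme2b is tagged in the annotation as a retrogene copy of Psme2. Psmd5, Psmd9 and Psmd10 encode assembly chaperones of the cap. All 44 passed the filter on low counts in both tables.

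The RNA came from spinal cord microglia, the resident macrophages of the nervous system, sorted by fluorescence. The series concerns microglia that repopulate the cord and the resolution of pain. Repopulated libraries came from mice labelled as depleted, in which tamoxifen and then diphtheria toxin had removed microglia for a time, and resident libraries from mice labelled as not depleted. Every library is labelled Cx3Cr1-Cre;Rosa26-iDTR as genotype and day 14 as time, without a statement of what the days count from. In this line, Cre made in Cx3cr1-expressing cells switches on a diphtheria toxin receptor. In the descriptions, however, repopulated libraries are called Dt (females) or iDTR (males) and resident ones Wt or WT. Effects of repopulation, of a genotype difference and of the toxin itself therefore cannot be told apart. In females there were 4 repopulated and 4 resident libraries with fracture, and 3 repopulated and 4 resident ones without. In males there were 7 repopulated and 5 resident libraries with fracture, and 2 repopulated and 3 resident ones without. The labels do not say that each library came from its own animal, so p-values reflect the spread among these libraries, some of which may be technical. Sex and library method are the same split, with an ultra-low input service for females and SMART-Seq v4 with Nextera DNA Flex for males, and each table was fitted alone.

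The proteasome is a barrel of stacked rings of alpha (Psma) and beta (Psmb) subunits that cuts proteins marked with ubiquitin. A cap of ATPases (Psmc) and non-ATPase subunits (Psmd) binds, unfolds and feeds the substrates, and the Psme genes encode activators that can dock in place of the cap. Of the beta subunits, Psmb5, Psmb6 and Psmb7 carry the cutting sites. Interferon is known to induce a second set, Psmb8, Psmb9 and Psmb10, which takes their places in newly built barrels called immunoproteasomes, and also the activator subunits Psme1 and Psme2. Immunoproteasomes are known for making peptides that class I molecules present to T cells, and microglia are known to make more of them under inflammation.

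Library totals ran between 16438827 and 18654165 estimated counts in females and between 5722993 and 33697535 in males. The lowest was resident replicate 2 without fracture in males. The 44 genes together took 0.334% to 0.437% of the counts of a female library and 0.359% to 0.421% of those of a male one. Levels are given as CPM, a gene's counts scaled by the library total and its TMM factor. Differences are log2 changes of repopulated over resident libraries with their standard error (SE), and a gene is called where edgeR's quasi-likelihood test gave an adjusted p below 0.05 over all genes of the table. Within a group, some libraries stood apart together in inducible genes. They were replicates 1 and 3 of resident females without fracture and, in Psmb9 and Psme1, replicates 6 and 7 of repopulated males with fracture. These are named below where they matter. Replicate 4 of resident males with fracture was the highest of its group in all 5 inducible genes.

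In males without fracture, 4 of the 5 inducible genes were called higher in repopulated than in resident microglia, by 1.59-fold to 1.97-fold. Psmb10 was not called, and 7.42% of all genes were called there. With fracture 2 were called, at 1.25-fold and 1.37-fold, where 4.91% of all genes were. The male calls on Psmb8 and Psme2 without fracture, and both with fracture, were lost in some fits without 1 library. In females Psme1 was called over both fracture states together, at 1.35-fold, where 8.52% of all genes were called. No inducible gene was called in females with fracture or without, where 2.35% and 2.53% of all genes were. None of the 39 other members was called higher in any comparison, and the few called were lower. In bulk samples, fewer cells of a type and less RNA per cell cannot be told apart.

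Psmb8 encodes the inducible subunit that replaces Psmb5, the chymotrypsin-like site. It lies at chr17:34197721-34201454 on the plus strand of GRCm38 (GENCODE M21), in the class II region of the major histocompatibility complex beside Tap1, Tap2 and Psmb9. The promoter windows below, from RefSeq on GRCm38.p6, are shown for Psmb8, Psmb9 and Psme1, which were called higher in males without fracture, and for Psmb10, which was not. Psme2, also called there, is not shown. In GENCODE M21 the windows of Psmb8, Psmb9 and Psme1 lie wholly inside the annotated gene, whose outermost 5′ end is farther out than the RefSeq start, so they are not upstream of every annotated start. Each is read 5′ to 3′ on the strand of its gene and runs over 250 bases before to 30 bases after the RefSeq start. Capitals mark a match to either of 2 interferon motifs, searched on both strands. The interferon-stimulated core was GAAA, any 2 bases and GAAA, and the gamma-activated core was TTC, any 3 bases and GAA.
Psmb8, chr17:34197945-34198224, plus strand: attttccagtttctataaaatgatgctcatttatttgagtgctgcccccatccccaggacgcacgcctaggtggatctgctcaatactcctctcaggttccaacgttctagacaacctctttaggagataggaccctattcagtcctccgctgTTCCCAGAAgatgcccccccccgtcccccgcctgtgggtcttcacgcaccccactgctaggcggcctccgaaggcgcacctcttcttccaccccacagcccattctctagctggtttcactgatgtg
Psmb9, chr17:34187301-34187580, minus strand: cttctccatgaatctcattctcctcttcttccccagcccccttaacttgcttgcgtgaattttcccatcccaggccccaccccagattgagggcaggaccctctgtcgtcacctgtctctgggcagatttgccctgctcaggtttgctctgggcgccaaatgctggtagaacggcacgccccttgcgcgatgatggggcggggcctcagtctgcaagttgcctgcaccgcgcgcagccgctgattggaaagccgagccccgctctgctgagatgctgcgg
Psme1, chr14:55578244-55578523, plus strand: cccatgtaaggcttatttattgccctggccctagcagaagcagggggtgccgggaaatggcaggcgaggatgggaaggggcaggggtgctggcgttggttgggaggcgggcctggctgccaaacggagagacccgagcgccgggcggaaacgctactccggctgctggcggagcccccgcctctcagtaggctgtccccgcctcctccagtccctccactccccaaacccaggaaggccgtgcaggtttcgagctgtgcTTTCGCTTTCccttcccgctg
Psmb10, chr8:105938363-105938642, minus strand: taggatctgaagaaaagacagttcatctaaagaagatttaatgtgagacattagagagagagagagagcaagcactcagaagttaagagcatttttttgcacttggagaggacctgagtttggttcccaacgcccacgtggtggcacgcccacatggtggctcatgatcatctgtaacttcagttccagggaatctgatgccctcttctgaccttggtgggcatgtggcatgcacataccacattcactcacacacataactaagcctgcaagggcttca
In Psmb8 the gamma-activated core begins 97 bases before the start, at position -97. In Psme1 the interferon-stimulated core lies on the minus strand and begins at position 10 after the start. Neither core is in the printed letters of Psmb9 or Psmb10.

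The search covered windows of 300 bases, 250 before and 50 after the start, which 37 of the 44 members had and 7 had not. Over the 32851 windows of all genes, 3.44% held the interferon-stimulated core and 8.3% the gamma-activated core. Of the 5 inducible genes, 1 held the first (Psme1) and 1 the second (Psmb8). Of the 32 other members with a window, 3 held the first (Psmb3, Psmd4 and Psmd9) and 1 the second (Psmd2). The antioxidant response core (TGAC, any 3 bases, GC) was in 0 of 5 inducible and 6 of 32 other windows, against 12.4% of all. The kappaB core (GGGA, any 4 bases, CC) was in 0 of 5 and 11 of 32, against 20.7% of all. Matches are a description of the letters in these windows, and the interferon cores did not overlap each other in them. The Psmb9 window shares 275 bases with that of Tap1, the class I peptide transporter, which is read from the opposite strand.

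In males with fracture, Psmb8 ran between 256 and 336 CPM in the 7 repopulated libraries, with a median of 277, against 226, 217, 204, 284 and 203 CPM in the resident ones. Resident replicate 4, at 284 CPM, was the only one inside the range of the repopulated libraries. Without fracture, Psmb8 had 302 and 356 CPM in the repopulated and 221, 193 and 181 CPM in the resident libraries, with no overlap. Of all 11999 genes, 2041 lay wholly higher in that comparison. The log2 change was 0.32 ± 0.09 (SE, adjusted p = 0.0382) with fracture and 0.73 ± 0.14 (adjusted p = 0.00157) without. In females the values overlapped. With fracture Psmb8 had 188, 273, 231 and 236 CPM in repopulated and 196, 186, 239 and 233 CPM in resident libraries. In the absence of fracture Psmb8 had 284, 341 and 297 CPM in repopulated and 278, 197, 289 and 215 CPM in resident libraries. Resident replicates 1 and 3, at 278 and 289 CPM, lay near the lowest repopulated value, and replicates 2 and 4 below it. The female log2 changes were 0.12 ± 0.13 with fracture and 0.33 ± 0.14 without, with adjusted p-values of 0.828 and 0.285.

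Psmb9 encodes the inducible partner of Psmb6, the caspase-like site. It lies at chr17:34181987-34187764 on the minus strand and overlaps the start of Tap1 on the other strand by 212 bases, so reads from these bases cannot be told apart unless strand was used in the counting, which is not given in the sources used here. In males with fracture, Psmb9 ran between 76 and 135 CPM in repopulated libraries, with a median of 90.3, against 70.1, 71.9, 65.9, 87.4 and 72.9 CPM in resident ones. Replicates 6 and 7 of the repopulated males, at 131 and 135 CPM, stood well above the other 5, which lay between 76 and 92 CPM. In the absence of fracture Psmb9 had 124 and 122 CPM in repopulated and 70.2, 59.6 and 59.3 CPM in resident libraries. This was 1.95-fold, a log2 change of 0.96 ± 0.21 (SE, adjusted p = 0.00569), and with fracture the change was 0.41 ± 0.14 and was not called (adjusted p = 0.106). In females with fracture, Psmb9 had 108.5, 102.2, 103 and 115 CPM in repopulated and 76.6, 82.1, 95.6 and 92 CPM in resident libraries. These groups did not overlap, yet the log2 change of 0.31 ± 0.16 was not called (adjusted p = 0.438). Without fracture Psmb9 had 154, 134 and 118 CPM in repopulated and 134, 80.8, 144 and 86.4 CPM in resident libraries, again with resident replicates 1 and 3 high (log2 change 0.28 ± 0.17, adjusted p = 0.494). Over both fracture states together the female change was 0.30 ± 0.12 (adjusted p = 0.153), and it was called (adjusted p = 0.0431) only when resident replicate 3 without fracture was left out.

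Psmb10 encodes the inducible partner of Psmb7, the trypsin-like site, and lies at chr8:105935735-105938444 on the minus strand. An antisense gene, Gm16156, is annotated over its whole length, and another, Gm20496, over part of Psmb8. Psmb10 in males with fracture ran between 82.5 and 119 CPM in repopulated libraries, with a median of 109.7, against 113, 117, 91.8, 128 and 95.7 CPM in resident ones. Without fracture Psmb10 had 107 and 127 CPM in repopulated and 119, 106 and 98 CPM in resident libraries. In females it lay between 59.3 and 90.4 CPM over the 7 repopulated libraries and between 68.7 and 86.1 CPM over the 8 resident ones. The groups overlapped in each comparison, and the log2 changes lay between -0.08 ± 0.12 (females with fracture) and 0.13 ± 0.16 (males without fracture). Psmb10 was the inducible gene with the smallest change in both male comparisons.

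Psme1 encodes the alpha subunit of the inducible activator ring and lies at chr14:55578123-55581529 on the plus strand. In males with fracture Psme1 ran between 87.6 and 181 CPM in repopulated libraries, with a median of 136, against 102.1, 96.7, 106, 114 and 93.8 CPM in resident ones. Replicate 1, at 87.6 CPM, was below every resident library, and replicates 6 and 7, at 181 and 180 CPM, were the highest. Without fracture Psme1 had 183 CPM in both repopulated libraries, against 93.1, 100.8 and 86.1 CPM in resident ones. The log2 changes were 0.45 ± 0.13 with fracture, called by a narrow margin (adjusted p = 0.04997), and 0.98 ± 0.20 without fracture (1.97-fold, adjusted p = 0.00353). In females with fracture Psme1 had 169, 187, 177 and 191 CPM in repopulated and 121, 132, 148 and 143 CPM in resident libraries. In females without fracture Psme1 had 228, 222 and 222 CPM in repopulated and 187, 123, 196 and 144 CPM in resident libraries. Neither pair of female groups overlapped, where 837 of all 13377 genes lay wholly higher with fracture and 919 without. The log2 changes of 0.41 ± 0.12 and 0.46 ± 0.13 missed the threshold within each state (adjusted p = 0.086 and 0.0662), and over both states the change of 0.44 ± 0.09 passed it (adjusted p = 0.00481).

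Psme2 encodes the beta subunit of the same ring and lies near Psme1, at chr14:55587441-55591113 on the minus strand. Psme2 in males with fracture ran between 102.2 and 157 CPM in repopulated libraries, with a median of 131, against 112, 99.9, 89.5, 151 and 92.6 CPM in resident ones. Without fracture Psme2 had 139 and 161 CPM in repopulated and 99.1, 88.7 and 94.8 CPM in resident libraries. The log2 change was 0.25 ± 0.13 (adjusted p = 0.35) with fracture and 0.67 ± 0.19 (adjusted p = 0.0354) without. As for Psmb8, resident replicate 4 with fracture was high, and without it the change with fracture was 0.41 and was called (adjusted p = 0.0456). In females the values overlapped, with 99.2, 116, 94.2 and 95.7 CPM in repopulated and 96.8, 91.2, 109.2 and 105 CPM in resident libraries with fracture. Without fracture they were 125, 137 and 132 CPM in repopulated and 139, 87.1, 127 and 104 CPM in resident libraries. The female log2 changes were 0.01 ± 0.12 and 0.20 ± 0.13. Reads may be split between Psme2 and its copy Psme2b, and summed to 1 gene the 2 gave male log2 changes of 0.25 ± 0.12 with fracture and 0.65 ± 0.18 without (adjusted p = 0.314 and 0.032).

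**Figure D1:**
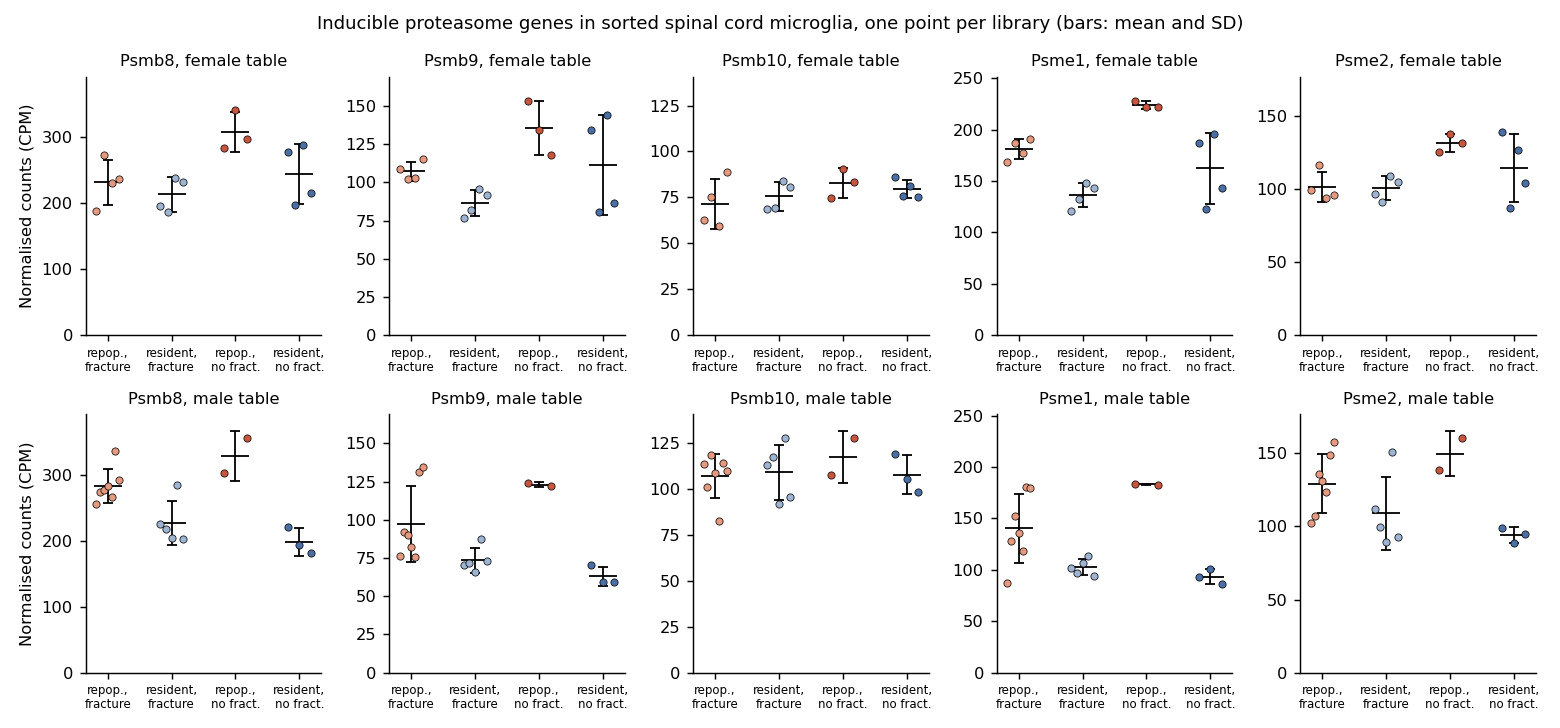
Level of each inducible gene (CPM, vertical axis) in every library, in repopulated and resident microglia with and without fracture, females above and males below. Points are libraries, the long bar is the mean and the error bar the SD. Psme1 in the male repopulated libraries without fracture sits at 183 CPM in both, against 86.1 to 100.8 CPM in resident ones, while Psmb10 overlaps in each panel.

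Set against the whole table, 4 of 44 proteasome genes (all inducible, all higher) were called in males without fracture, where 7.42% of all genes were called and 4.7% were called higher. With fracture, 2 of 44 were called in males, where 4.91% of all genes were, and over both states 5 of 44, where 12.8% were. The 5 were Psmb8, Psmb9, Psme1 and Psme2, which were higher, and Psmc2, which was lower. In females 0 of 44 were called with fracture, where 2.35% of all genes were, and 0 of 44 without fracture, where 2.53% were. At an unadjusted p below 0.05, edgeR counted 8 female members with fracture (13.7% of all genes) and 7 without (15.3%), and DESeq2 called 2 (5.51%) and 3 (5.05%). Over both states edgeR called 5 of 44 in females, where 8.52% of all genes were called. The share of the 44 genes called was thus near that of all genes in each of these comparisons, and the male calls higher all fell on the 5 inducible genes. Lack of overlap between such small groups was common. Of all 11999 male genes, 2041 lay wholly higher and 2209 wholly lower in repopulated libraries without fracture, and 240 and 190 with it. Of all 13377 female genes, 919 and 862 did so without fracture, and 837 and 755 with it.

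The male calls rested on few libraries. Where 1 of the 2 repopulated libraries without fracture is left out, the other is assumed to vary like the libraries of the other groups. Leaving out each of the 17 in turn, Psmb9 and Psme1 kept their call without fracture each time. Psmb8 lost it without repopulated replicate 2 (log2 change 0.61, adjusted p = 0.05 after rounding), and Psme2 lost it without any 1 of the 5 libraries of that comparison, with adjusted p-values up to 0.305. With fracture, Psmb8 lost its call in 8 of the 17 fits (adjusted p up to 0.117) and Psme1 in 13 (up to 0.121). Over both states, Psmb8, Psmb9 and Psme1 kept it in all 17, and Psme2 lost it without repopulated replicate 2 without fracture (0.0777). Male library names carry V numbers in 2 ranges, 64 to 79 and 99 to 110, which the labels do not call batches. The comparison without fracture lies in the lower range. With fracture, Psmb8 had a log2 change of 0.32 ± 0.08 within numbers 64 to 69 and 0.27 ± 0.15 within 99 to 110, and Psme1 of 0.27 ± 0.18 and 0.57 ± 0.19, none called. With the range as a term the changes were 0.30 and 0.41 (adjusted p = 0.0543 and 0.0865).

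None of the constitutive counterparts was called. Psmb5, Psmb6 and Psmb7, which carry the chymotrypsin-like, caspase-like and trypsin-like sites, had log2 changes between -0.35 and -0.05 in the male comparisons and between -0.11 and 0.09 in the female ones, none called. Psme3, the subunit of another activator ring, found in the nucleus, had -0.28 ± 0.10 in males with fracture (adjusted p = 0.102) and -0.08 ± 0.15 without. Psmb5 ran between 62.3 and 80.9 CPM in repopulated males with fracture, against 72.1 to 89.8 CPM in resident ones. Psmb7 had 35 and 36.2 CPM in repopulated males without fracture, against 44.3 to 46.5 CPM in resident ones, which did not overlap but gave -0.35 ± 0.18 (adjusted p = 0.32).

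Ratios of the counts of 2 genes in 1 library do not depend on the scaling between libraries. The log2 ratio of Psmb8 to Psmb5 in males was 1.97 ± 0.24 (SD, n = 7) in repopulated and 1.45 ± 0.16 (n = 5) in resident libraries with fracture. Without fracture it was 2.10 ± 0.03 (n = 2) in repopulated and 1.31 ± 0.16 (n = 3) in resident males. The log2 ratio of Psmb9 to Psmb6 in males was -0.42 ± 0.40 in repopulated and -0.89 ± 0.16 in resident libraries with fracture, and -0.05 ± 0.10 and -1.20 ± 0.09 without. Without fracture the repopulated and resident male libraries did not overlap in either ratio. Lack of overlap is common between 2 and 3 libraries. By CPM, 2041 of all 11999 genes lay wholly higher there and 2209 wholly lower. Psmb10 to Psmb7 in males gave 1.59 ± 0.18 in repopulated and 1.42 ± 0.35 in resident libraries with fracture, and 1.72 ± 0.14 and 1.24 ± 0.12 without. In that ratio the male libraries without fracture did not overlap either, with 1.62 and 1.82 in repopulated and at most 1.36 in resident ones. Neither gene was called.

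In females the ratio of Psmb8 to Psmb5 was 1.85 ± 0.22 in repopulated and 1.84 ± 0.20 in resident libraries with fracture (n = 4 each), and 2.42 ± 0.06 (n = 3) and 1.97 ± 0.21 (n = 4) without. Psmb9 to Psmb6 was -0.16 ± 0.11 in repopulated and -0.58 ± 0.14 in resident females with fracture, and -0.04 ± 0.22 and -0.34 ± 0.38 without. In the Psmb8 pair the repopulated and resident females were apart without fracture and overlapped with it, and in the Psmb9 pair they were apart with fracture and overlapped without it. Psmb10 to Psmb7 lay between 1.32 and 1.37 on average in all 4 female groups. The activator ratio Psme1 to Psme3 was 1.04 ± 0.15 in repopulated and 0.54 ± 0.20 in resident females with fracture, and 1.27 ± 0.12 and 0.79 ± 0.35 without. In males it was 0.53 ± 0.29 in repopulated and -0.18 ± 0.08 in resident libraries with fracture, and 0.81 ± 0.08 and -0.25 ± 0.01 without. The ratios describe the members and were given no test.

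**Figure D2:**
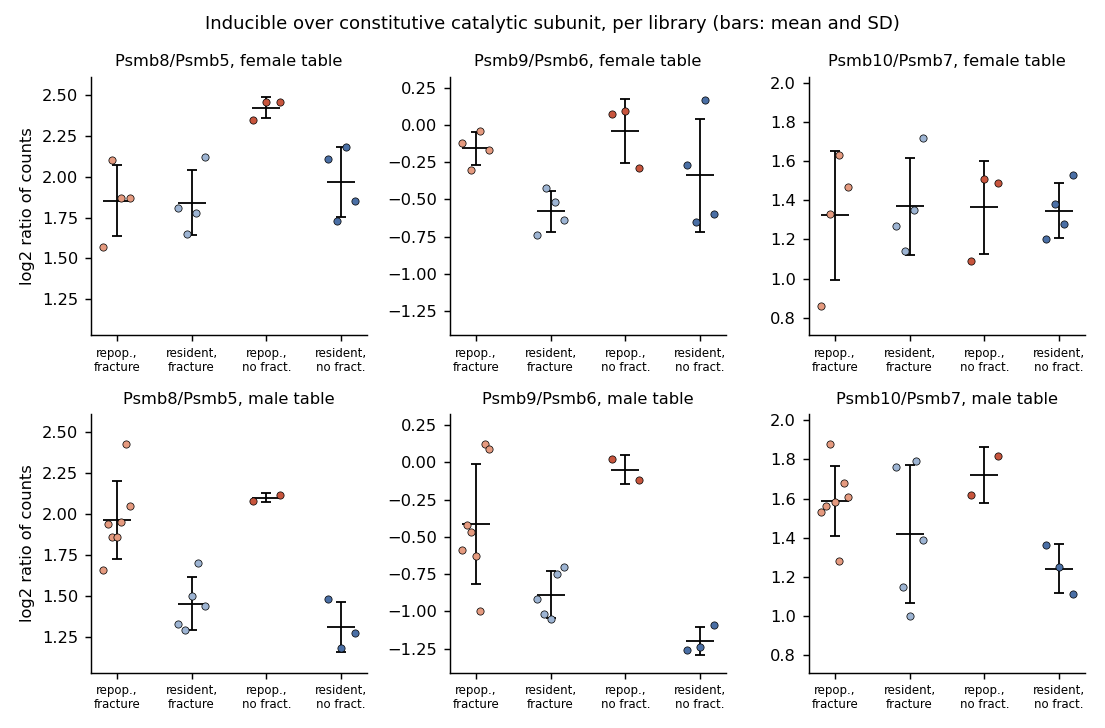
Log2 ratio of the counts of each inducible catalytic gene to its constitutive counterpart (vertical axis) in every library, in repopulated and resident microglia with and without fracture, females above and males below. Points are libraries, long bars means and error bars SD. In males without fracture the Psmb9 to Psmb6 ratio averages -0.05 in repopulated and -1.20 in resident libraries, with no overlap.

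Averaged over genes, the 5 inducible genes stood above the other 39 by 1.17 ± 0.20 log2 units in repopulated and 0.82 ± 0.16 in resident males with fracture (SD over libraries, log2 of CPM plus 1), and by 1.39 ± 0.01 and 0.65 ± 0.09 without. In females the difference was 1.07 ± 0.10 in repopulated and 0.81 ± 0.08 in resident libraries with fracture, and 1.38 ± 0.04 and 0.98 ± 0.23 without. The repopulated libraries did not overlap the resident ones in females with fracture, in females without fracture or in males without fracture. Males with fracture overlapped, with 0.93 to 1.43 in repopulated and 0.68 to 1.07 in resident libraries. The members were chosen with earlier results of these data known, so this is a description with no test.

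The 39 other members leaned the other way by a small amount. Their median log2 change was -0.12 in females and -0.10 in males with fracture, and -0.10 and -0.13 without, against -0.00 to -0.03 for all genes. With fracture 32 of 39 were below 0 in females and 29 in males, and without fracture 27 and 30, where 50% and 50.9% of all genes were below 0 with fracture and 52.4% and 52.8% without. Their median less that of all genes was between -0.12 and -0.08. Library totals in place of TMM factors moved the median of all genes to between -0.12 and -0.05, a shift that by construction applies to the members and to all genes alike. These genes share libraries and are not independent of each other.

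By place in the particle, the 6 genes of the ATPase ring of the cap all lay below 0 over both fracture states together. Their median log2 change was -0.18 in females and -0.11 in males, where 52.5% and 52.8% of all genes were below 0. Within each state all 6 were below 0 in females. In males 4 of the 6 were with fracture and 5 without. Psmc2 and Psmc3, both ATPases of this ring, were lower in repopulated females over both states, with log2 changes of -0.30 ± 0.07 and -0.18 ± 0.05 (adjusted p = 0.0154 and 0.0348). Psmc2 was lower in males as well (-0.21 ± 0.07, adjusted p = 0.0421). In females with fracture Psmc2 had 86, 65.3, 73.9 and 84.1 CPM in repopulated and 93.5, 90.1, 102.6 and 108 CPM in resident libraries, with no overlap. Without fracture Psmc2 had 77.3, 86 and 72.9 CPM in repopulated and 92.8, 96.5, 87.1 and 99.8 CPM in resident libraries, again apart. In males without fracture Psmc2 had 98 and 108.7 CPM in repopulated and 116, 131 and 119 CPM in resident libraries. With fracture it ran between 90.2 and 109.3 CPM in repopulated males, against 109.1 to 123 CPM in resident ones, so the groups met at their edges. The female call on Psmc2 held without any 1 of the 15 libraries, and the male call was lost in 14 of 17 such fits (adjusted p up to 0.208).

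Of the 11 other cap subunits, Psmd6, which sits in the lid, was lower in repopulated females over both states (-0.26 ± 0.07, adjusted p = 0.0265). It had 78.6, 96.4, 97.4 and 103 CPM in repopulated and 103, 95.2, 101.8 and 114 CPM in resident females with fracture. Without fracture Psmd6 had 83.4, 78.2 and 78.2 CPM in repopulated and 113, 94.3, 107 and 100.4 CPM in resident females, which did not overlap. Psmc3ip was also called lower over both states (-1.37 ± 0.38, adjusted p = 0.0341), at levels between 0.558 and 5.25 CPM over all 15 female libraries, and it is not a proteasome subunit. Leaving out 1 library ended the call on Psmd6 in 4, on Psmc3 in 8 and on Psmc3ip in 9 of the 15 fits.

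The inducible genes and Psme3 aside, the uncalled members closest to the threshold within 1 state were as follows. In females with fracture they were Psmc2 (-0.35 ± 0.10, adjusted p = 0.0771) and Psma1 of the alpha ring (-0.24 ± 0.08, 0.148). Without fracture they were Psmd6 (-0.38 ± 0.10, 0.061) and Psmc3ip (-2.04 ± 0.58, 0.0801). In males with fracture they were Psmc2 (-0.18 ± 0.07, 0.189) and Psmd4, a ubiquitin receptor of the cap (-0.21 ± 0.09, 0.22). Without fracture they were Psmd7 (-0.38 ± 0.17, 0.214) and Psmd6 (-0.35 ± 0.16, 0.219), both of the lid. The alpha ring, with the testis-type Psma8 included, had median changes over both states of -0.11 in females and -0.10 in males, and the 4 non-catalytic beta subunits -0.07 in both. The assembly chaperones of the cap, Psmd5, Psmd9 and Psmd10, had medians of -0.07 and -0.12. Psme4, a large single-chain activator, had 0.27 ± 0.19 in females with fracture and 0.52 ± 0.27 in males without, and was not called.

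**Figure D3:**
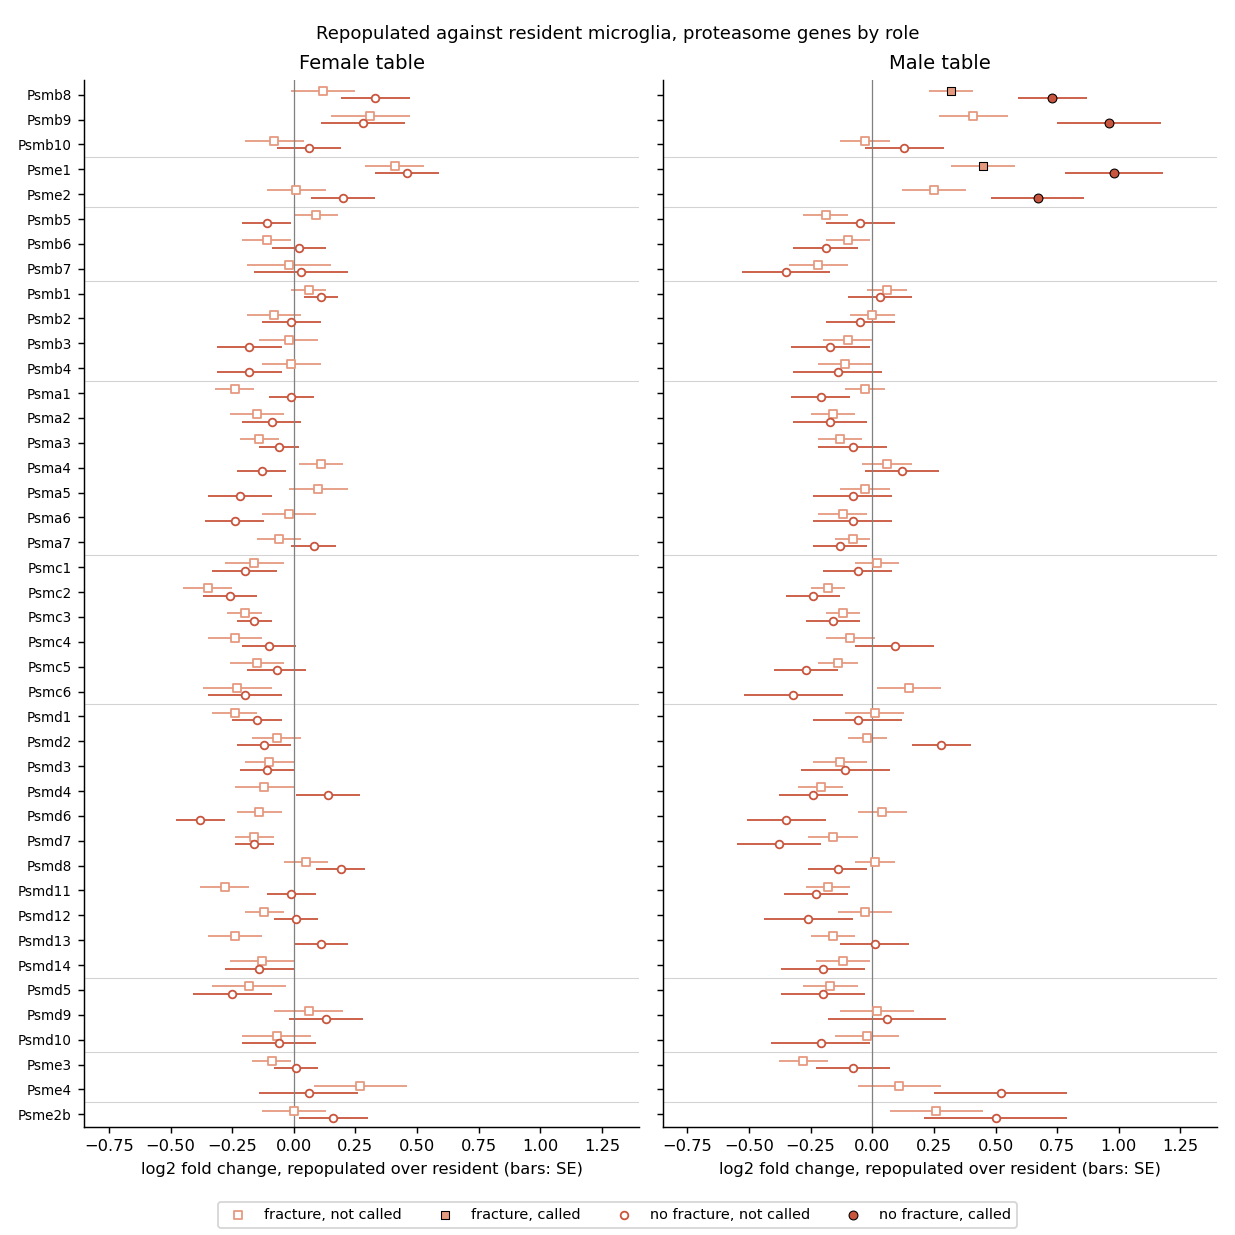
Log2 change of repopulated over resident microglia (horizontal axis, bars SE) for the proteasome genes, grouped by role from inducible catalytic genes at the top to Psme2b, in females and males, with fracture (squares) and without (circles). Filled points passed the threshold. Psma8 and Psmc3ip are left out for their wide bars. The filled points are Psmb8 and Psme1 with fracture and Psmb8, Psmb9, Psme1 and Psme2 without, all in males, and most other genes lie slightly left of 0.

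Fracture against no fracture gave no call among the 44 genes. In repopulated females 0 of 44 were called, where 0% of all genes were, and in resident females 0 of 44, where again 0% were. In repopulated males 0 of 44 were called and in resident males 0 of 44, where 0.00833% of all genes were in each. DESeq2 called 0 of 44 in repopulated females (0.686% of all genes), in resident females (0.0299%) and in resident males (0.1%). In repopulated males it gave an adjusted p for 25 of the 44 and called 0 of them (2.91% of the genes it tested). At an unadjusted p below 0.05 edgeR counted 9 members in repopulated females, 1 in resident females, 1 in repopulated males and 0 in resident males. The background at that level was 10.5%, 4.93%, 8.29% and 4.26% of all genes.

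Within each of these comparisons the 5 inducible genes nevertheless lay on the same side of 0, above it in resident males and below it in the others. In repopulated females with fracture against those without, all 5 had log2 changes below 0, with a median of -0.34. So did 26 of the 39 other members and 51.1% of all genes. Psmb8 had -0.41 ± 0.14 and Psme2 -0.38 ± 0.13 (adjusted p = 0.386 for both), and 4 of the 5 did not overlap between the groups, where 6.2% of all genes did not overlap on that side. In repopulated males the median was -0.22, with Psme1 at -0.38 ± 0.17 (adjusted p = 0.574). In resident females the median was -0.20 and in resident males 0.19, none called. Among resident females Psmb9 had 76.6 to 95.6 CPM with fracture, against 134 and 144 CPM in replicates 1 and 3 and 80.8 and 86.4 CPM in replicates 2 and 4 without. Of the other members, the nearest to the threshold were Psmd13 (-0.41 ± 0.11, adjusted p = 0.316) and Psmc3ip (1.57 ± 0.58, 0.396) in repopulated females. In resident females they were Psmb4 (-0.25 ± 0.12, 0.94) and Psmb1 (-0.14 ± 0.07, 0.94). In repopulated males they were Psme4 (-0.38 ± 0.23, 0.729) and Psmd2 (-0.16 ± 0.11, 0.784), and in resident males Psmd10 (-0.31 ± 0.16) and Psmd14 (-0.27 ± 0.14), both with an adjusted p of 1.

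The difference between the repopulation effect with fracture and that without was tested as an interaction, and 0 of 44 were called in females, where 0% of all genes were, and 0 of 44 in males, where 0.00833% were. DESeq2 called 0 of 44 in females (0.00748% of all genes), and in males it gave an adjusted p for 2 of the 44 and called 0 of them (4.6% of the genes it tested). In males the 5 inducible genes had interaction terms below 0, with a median of -0.42, and 3 of them had an unadjusted p below 0.05, where 7.38% of all genes did. They were Psmb8 (-0.41 ± 0.16, adjusted p = 0.584), Psmb9 (-0.56 ± 0.25, 0.643) and Psme1 (-0.52 ± 0.24, 0.649). The larger male change without fracture was therefore not shown to differ from that with fracture. In females the inducible median was -0.14, and 1 of 44 members had an unadjusted p below 0.05, where 3.69% of all genes did. It was Psmd13 (-0.35 ± 0.16), and next came Psma1 (-0.23 ± 0.12). In males Psmd6 (0.39 ± 0.18) and Psmd2 (-0.30 ± 0.15) came next after the inducible genes.

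Levels can be compared between genes once counts are divided by transcript length. On this per-length scale, with the sum over all transcripts of known length set equal in every library, Psmb8 was the highest of 43 ranked proteasome genes in each of the 8 groups. In males it reached 504 ± 52.9 in repopulated and 413 ± 74.8 in resident libraries with fracture, and 561 ± 24.6 and 355 ± 12.8 without (SD). In females it reached 420 ± 63.3 and 421 ± 42.1 with fracture, and 552 ± 53.4 and 475 ± 76 without. These and the following per-length levels count all transcripts of a gene, also those not annotated as protein coding. The retained-intron transcript Psmb8-205 held 45.6% of the Psmb8 counts in females and 49.3% in males, while all Psmb5 counts were on a coding one. Ranks and shares over coding transcripts alone were not computed. Counted over all transcripts, Psmb8 already exceeded its constitutive counterpart in resident microglia. It made 70.2% ± 2.33 of the summed per-length level of Psmb8 and Psmb5 in resident males with fracture and 68.2% ± 1.82 without. In repopulated males the share was 77.2% ± 2.89 and 78.8% ± 0.321. In females it was 75.3% ± 2.82 in repopulated and 75.3% ± 2.55 in resident libraries with fracture, and 82.1% ± 0.564 and 76.8% ± 2.57 without.

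Psmb9 stood below its counterpart throughout. Its share of the summed level of Psmb9 and Psmb6 in males was 31% ± 5.8 in repopulated and 24.5% ± 1.27 in resident libraries with fracture, and 35.7% ± 0.557 and 20.6% ± 0.288 without. In females it was 32.6% ± 1.5 in repopulated and 26.2% ± 1.69 in resident libraries with fracture, and 33.6% ± 3.03 and 29.2% ± 4.95 without. Psmb10 made 73.7% to 79.7% of the summed level with Psmb7 on average in each of the 8 groups. The mean of Psmb9 was below that of Psmb10 in 7 of the 8 groups. In 3 female groups they did not differ beyond their spread, with 139 ± 8.51 for Psmb9 and 146 ± 23 for Psmb10 in repopulated females with fracture, 166 ± 17.7 and 163 ± 17.7 in repopulated females without, and 147 ± 37.2 and 174 ± 12.5 in resident females without.

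Psme1 changed its place. In males without fracture it ranked 2 of 43 in repopulated libraries, at 298 ± 23.5, and 14 in resident ones, at 160 ± 20.2. With fracture it ranked 4, at 235 ± 57.5, in repopulated and 10, at 177 ± 14.2, in resident males. In females it ranked 2 in both repopulated groups, 5 in resident females with fracture and 4 in those without. Psmb6 was among the 4 highest in each group. At the low end Psma8, Psmc3ip and Psme4 reached at most 9.42 on this scale. Psmc2 has no rank, since transcripts without a length in GENCODE M21 held 97.1% of its counts in females and 97.3% in males.

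**Figure D4:**
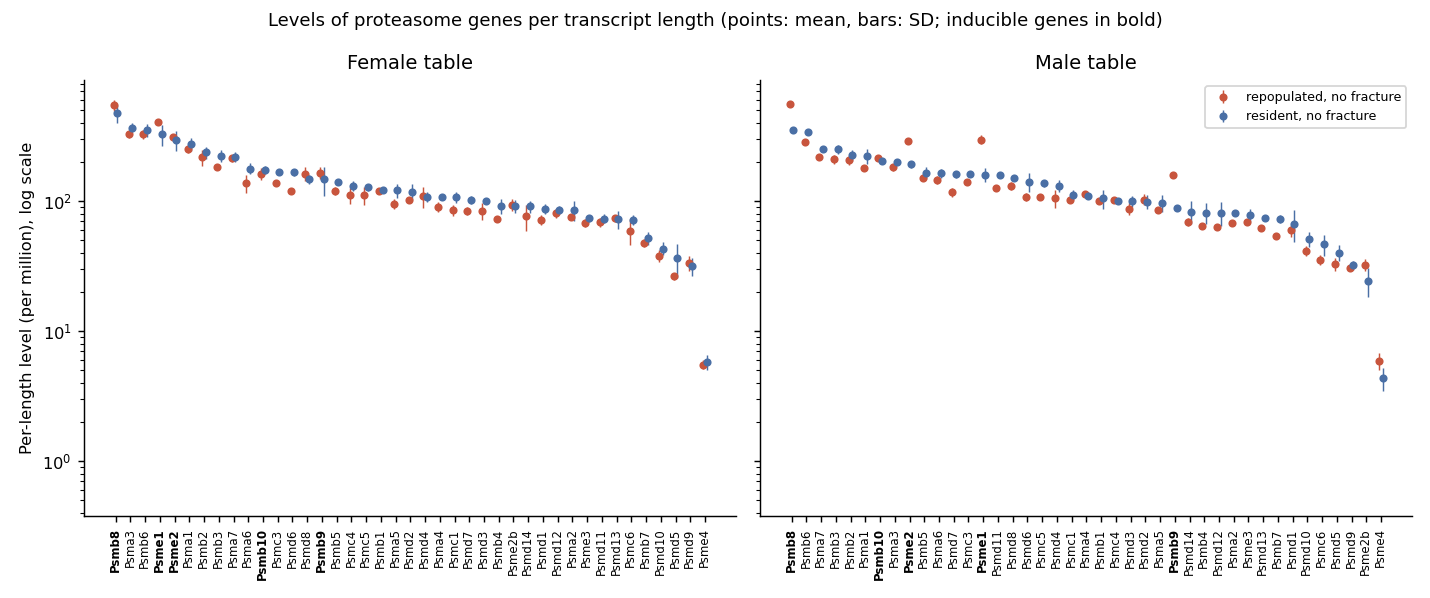
Per-length level (vertical axis, log scale) of the proteasome genes with a known transcript length, in repopulated and resident microglia without fracture, ordered by the level in resident libraries, inducible genes in bold. Points are means over libraries and bars SD. Psma8 and Psmc3ip are left out. In males Psme1 and Psmb9 stand apart from the curve of their neighbours, with Psme1 at 298 in repopulated and 160 in resident libraries.

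The deposited tables give counts per transcript, and the share on transcripts annotated as protein coding differed between the inducible genes. Psmb8-205, annotated as a retained intron, held 45.6% of the Psmb8 counts in females and 49.3% in males, against 42.5% and 43.3% for the coding Psmb8-203. Coding transcripts held 50.7% ± 1.37 of the Psmb8 counts in repopulated and 47.4% ± 5.2 in resident males with fracture, and 50.9% ± 0.871 and 48% ± 4.81 without. The shares overlapped between repopulated and resident libraries. Coding shares were higher for Psmb10, Psme1 and Psme2. Group means were 65.1% to 77% for Psmb10, and 73.7% to 76.6% in females and 91.3% to 93.6% in males for Psme1. They were 85.3% to 89.5% in females and 97.8% to 99% in males for Psme2. For Psme2 the leading transcript differed by table, Psme2-201 with 56.9% of the counts in females and Psme2-208 with 77.8% in males. Coding transcripts held 43.9% to 47% of the Psmb9 counts on average in female groups and 67.1% to 73.1% in male groups. In females this was below Psmb8, whose group means were 52.7% to 54%. How such shares follow from the library method was not tested.

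Of 12 listed assembly factors and regulators, all measured, none was called in females. In males over both states Akirin2, which helps carry proteasomes into the nucleus, was lower (-0.32 ± 0.08, adjusted p = 0.00786), as was Zfand5, a proteasome activator (-0.26 ± 0.09, 0.0456). These were 2 of 12, where 12.8% of all genes were called. The median of the list over both states was 0.04 in each table. Of 18 listed further cap components, shuttle factors and ubiquitin genes, 16 were measured. In females 2 were called higher with fracture and 2 without, where 2.35% and 2.53% of all genes were called. Over both states 2 were higher and 1 lower in females, where 8.52% of all genes were called. In males 3 were higher over both states, where 12.8% were, and 0 were called within either state. Rps27a, which encodes ubiquitin fused to a ribosomal protein, was higher in repopulated females with fracture (0.47 ± 0.10) and without (0.45 ± 0.11), and in males over both states (0.42 ± 0.10). Its reads may be shared with near-identical copies. Ecpas, an adaptor of the proteasome, was higher in males over both states (0.34 ± 0.11, adjusted p = 0.0401).

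Most calls among genes that carry the interferon signal were in the male table. Of 17 listed genes of interferon signalling, all measured, 4 were higher in males with fracture, where 4.91% of all genes were called, and 9 were higher and 1 lower without, where 7.42% were. Irf7, an interferon regulatory factor, had the largest change of the list in males, 2.35 ± 0.46 with and 4.31 ± 0.71 without fracture (adjusted p = 0.00823 and 0.00171). Nlrc5, the class I transactivator, rose by 2.28 ± 0.65 without fracture (adjusted p = 0.0348). Stat2, which helps carry the type I signal to the nucleus, rose in both states (adjusted p = 0.0116 and 0.00373), by 2.18 ± 0.42 without fracture. Ifnar1, a receptor chain for type I interferon, rose with fracture (0.40 ± 0.08, adjusted p = 0.00444). In females Ifnar1 was the only one called (0.41 ± 0.09 without fracture, adjusted p = 0.0226), where 2.53% of all genes were called. With fracture edgeR called 0 of 17 in females, and 2 had an unadjusted p below 0.05, as did 13.7% of all genes. The median of the list was 0.16 with and 0.45 without fracture in males, and 0.09 and 0.14 in females, against -0.00 to -0.03 for all genes.

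Of 10 listed genes of class I peptide supply, all measured, 4 were higher in males with fracture (4.91% of all genes called) and 7 without (7.42%). The leading ones without fracture were the class I heavy chains H2-D1 (2.47 ± 0.27) and H2-K1 (2.33 ± 0.28), the transporter Tap1 (1.79 ± 0.32) and the light chain B2m (1.54 ± 0.16). With fracture H2-D1, H2-K1, B2m and the peptide loader Tapbp were called (1.21 ± 0.18, 1.03 ± 0.19, 0.70 ± 0.11 and 0.23 ± 0.06). In females 0 were called by edgeR with fracture, where 6 of 10 and 13.7% of all genes had an unadjusted p below 0.05. Without fracture Tapbp was called in females (0.27 ± 0.07, adjusted p = 0.048), where 2.53% of all genes were. Over both states Tapbp, B2m, H2-K1 and H2-D1 were called in females (0.26 ± 0.05, 0.60 ± 0.15, 0.83 ± 0.20 and 0.95 ± 0.22), where 8.52% of all genes were. The H2 genes share sequence with each other, and reads may be split between them.

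Both pairs of libraries that stood apart in some inducible subunits also stood apart in Irf7. Among resident females without fracture, Irf7 had 554 and 419 CPM in replicates 1 and 3, against 145 and 218 CPM in replicates 2 and 4. Among repopulated males with fracture, replicates 6 and 7 had 359 and 345 CPM of Irf7, against 48.4 to 143 CPM in the other 5. Replicate 1, lowest for Psme1, was lowest for Irf7. Resident male replicate 4 with fracture, highest of its group for the inducible genes, had 43.8 CPM of Irf7, within the range of its group. What sets these libraries apart is not in the labels.

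Markers of microglia were high in all libraries. In males their sum was lower in repopulated libraries without fracture and overlapped with fracture. The 10 listed markers summed to 49627 to 59551 CPM in repopulated and 56915 to 64656 CPM in resident males with fracture, and to 51218 to 52622 and 58918 to 61774 CPM without. In males 2 of the 10 were called lower with and 4 without fracture, among them P2ry12 (-0.49 ± 0.09 and -1.12 ± 0.15). The shares of all genes called were 4.91% and 7.42%. In females 1 was called lower with fracture, 2 without and 5 over both states, where 2.35%, 2.53% and 8.52% of all genes were called. The median changes of the 10 were -0.19, -0.24 and -0.24, and the sums overlapped in both states. Markers of circulating macrophages, of which 5 of 10 were measured, summed to 744 to 1680 CPM in repopulated and 418 to 931 CPM in resident males with fracture, and to 841 to 1726 and 325 to 409 CPM without. In females the sums were 1469 to 1794 CPM in repopulated and 587 to 650 CPM in resident libraries with fracture, and 1129 to 2044 and 512 to 916 CPM without. Lyz2, which activated microglia also express, made most of these sums. Of the 5 markers, 3 were called higher in females with fracture, 3 without and 4 over both states. The shares of all genes called were 2.35%, 2.53% and 8.52%. In males 0 were called higher with fracture, 1 without and 3 over both states, where 4.91%, 7.42% and 12.8% of all genes were called. In these comparisons 0 were called lower. Ms4a7 had 1.37, 28.3, 34.6, 7.45, 10, 1.93 and 4.93 CPM in replicates 1 to 7 of the repopulated males with fracture, against 0 to 1.83 CPM in resident ones. In females Ms4a7 had 12.9 to 44 CPM in repopulated and 0.105 to 0.91 CPM in resident libraries with fracture. Without fracture the female values were 2.54 to 32.9 and 0 to 4.49 CPM. Of 7 B cell markers 3 were measured, of which 2 were called lower with fracture and 3 without in females, and 2 and 1 in males. Of all genes, 2.35% and 2.53% were called in females, and 4.91% and 7.42% in males. The sums of the B cell markers were 389 to 461 CPM in repopulated and 545 to 600 CPM in resident females with fracture, and 343 to 376 and 489 to 625 CPM without. In males they were 332 to 451 CPM in repopulated and 429 to 529 CPM in resident libraries with fracture, and 312 to 340 and 471 to 543 CPM without. None of the 8 T and NK cell markers was in either table, whose rows hold transcripts with at least 10 counts in 8 or more female or 9 or more male libraries. Of 6 border macrophage markers, 2 (females) and 3 (males) were measured, with sums of at most 45.4 CPM. Of 6 neutrophil markers only Csf3r was, which microglia also express, and it was called higher in repopulated females with fracture (0.37 ± 0.06) and in males with (0.36 ± 0.08) and without (0.50 ± 0.12). Of 6 dendritic cell markers 4 and 2 were. They summed to 47.5 to 93.4 CPM in repopulated and 27.9 to 33.3 CPM in resident females with fracture, and to 120 to 144 and 16.2 to 126 CPM without. In males they summed to 30.4 to 128 CPM in repopulated and 20.5 to 33.7 CPM in resident libraries with fracture, and to 132 to 158 and 14.8 to 25.3 CPM without. Itgax, which activated microglia also express, was called in males (1.57 ± 0.35 with and 3.43 ± 0.54 without fracture). Of 5 endothelial markers 2 and 1 were, and Pecam1 was called lower in repopulated females with (-2.32 ± 0.48) and without fracture (-2.19 ± 0.53) and in males without (-4.09 ± 1.08). The 11 markers of oligodendrocytes, astrocytes and neurons, of which 6 and 5 were measured, had sums that overlapped between repopulated and resident libraries in each comparison. Of them, 1 was called higher in females without fracture, where 2.53% of all genes were called. The part of these cells in the differences of the proteasome genes was not tested.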

How the data were processed

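RNA-seq of 15 female and 17 male libraries was analysed from 2 tables. The tables hold estimated counts per transcript as deposited, given as whole numbers, and a score column that per its values in the deposited files is each row's mean absolute deviation, which was checked and not used. Per the submitters' processing notes the build was GRCm38 and the tools included RSEM 1.3.1, STAR 2.7.6a, cutadapt 3.4, Trim Galore 0.6.7, DESeq2 1.34.0, R 4.1.3, MultiQC 1.11 and FastQC 0.11.9. What each tool did, the annotation release and the use of strand are not given in these sources. Transcripts were summed by gene identifier. All genes of a table were fitted with 1 edgeR 4.0.16 quasi-likelihood model of 4 groups (R 4.3.3, TMM factors, filterByExpr, robust), and p-values were adjusted by Benjamini and Hochberg over all genes. The fit was tested on simulated data. Ratios and per-length levels were not tested. The members and lists were chosen with earlier results of these data known. Named are the inducible genes and their counterparts, called members, the 2 members nearest to a call where there was none, and up to 4 called genes of each further list. Alternatives were other scalings, DESeq2 1.42.0, filters, the leading transcript, fewer groups, V number ranges, a replicate block and leaving out each library. Transcript lengths and types came from GENCODE M21. Some genes of the further lists are counted with their list and not reported here by name.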

Additional observations from a re-analysis of the deposited data

Results flagged for a closer look

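In 7 of the 90 groups of 4 to 10 libraries examined for the named proteasome genes, 1 library lay far from the others. Chance alone flags groups of this kind at a rate of about 0.05, and none of the 7 was given an explanation. Among repopulated females with fracture, replicate 1 had 93.1 CPM of Psmb1, a structural beta subunit, against 100.1 to 101.1 CPM in the others, and 41.9 CPM of Psmb4, against 34.7 to 35 CPM. Among resident females without fracture, replicate 1 had 161 CPM of Psmb6, the caspase-like site, against 127 to 131 CPM, and 5.25 CPM of Psmc3ip, against 1.59 to 2.01 CPM. Among repopulated males with fracture, replicate 5 had 152 CPM of Psmb6, against 115 to 127 CPM, and 122 CPM of Psmd6, a lid subunit, against 79.1 to 91.2 CPM. Among resident males with fracture, replicate 4 had 284 CPM of Psmb8, against 203 to 226 CPM, and it was also the highest of its group for the other 4 inducible genes.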

How the results depend on the processing

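The number of members called moved most in the comparisons near the threshold. In females without fracture it was 0, and 1 with library totals, 3 with DESeq2 and 1 with a mean of at least 5 CPM. In females with fracture it was 0, and 4 with library totals, 2 with DESeq2 and 1 with only the 2 groups compared. Over both states it was 5 in females, and 10 with library totals, 2 with the most abundant transcript only and 2 with the replicate block. In males with fracture it was 2, and 1 with library totals, without the robust option or with only the 2 groups compared, and 0 with the most abundant transcript, the replicate block, the V number range as a term, or V numbers 64 to 69 or 99 to 110 alone. Over both states it was 5 in males and 11 with library totals. Leaving out 1 library gave 0 to 1 and 0 to 1 in females with and without fracture, 2 to 6 over both, and 0 to 2, 2 to 4 and 3 to 5 in males. Signs turned in small values only. In females without fracture, library totals gave -0.03 for Psmb10, -0.07 for Psmb6, -0.06 for Psmb7 and -0.08 for Psme3, the most abundant transcript gave -0.02 for Psmb7, and the replicate block -0.01 for Psme3. In females with fracture Psme2 was -0.08 with library totals and Psmb7 0.06 with the most abundant transcript, which also gave -0.06 for the Psmb9 interaction. Psmb10 was 0.05 in males with fracture for V numbers 64 to 69 and -0.02 over both states with library totals. Without 1 library, females without fracture ranged over -0.01 to 0.12 (Psmb10), -0.03 to 0.11 (Psmb6), -0.05 to 0.12 (Psmb7) and -0.05 to 0.08 (Psme3). With fracture they ranged over -0.07 to 0.05 (Psme2) and -0.12 to 0.13 (Psmb7), over both states -0.08 to 0.03 (Psmb10) and -0.04 to 0.03 (Psmb5), and for the interaction -0.12 to 0.15 (Psmb9) and -0.16 to 0.06 (Psme1). Males ranged over -0.15 to 0.04 (Psmb5) and, for Psmb10, -0.09 to 0.04 with fracture, -0.02 to 0.11 over both states and -0.04 to 0.10 for fracture in resident libraries. The cause of these moves was not tested. Summing Psme2 with Psme2b, chosen after seeing the data, kept each call on Psme2. Whether replicate numbers pair the libraries cannot be settled by correlation in groups this small. Deviations of same-numbered libraries from their group means had r between -0.45 and 0.33 in females (4 of 21 over 0.1). In males they had r between -0.09 and 0.06 (0 of 17). Differently numbered libraries had r between -0.35 and 0.43 in females and between -0.14 and 0.13 in males. The male comparison without fracture has 2 and 3 libraries, of which a resident one has the lowest total count. Where 1 of the 2 repopulated ones was left out, the lone one was assumed to vary like the other groups.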
